A study of Mus musculus with 36 samples.

Results

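The genes described here are Ppara, which encodes the nuclear receptor PPARα, and 9 genes that PPARα is known to regulate in liver during fasting or on a diet rich in fat: Fgf21, Pdk4, Angptl4, Vnn1, Ehhadh, Acot1, Acot2, Creb3l3 and Ucp2. They were picked as known PPARα genes with earlier results of these data in view, and their rows were found by gene symbol. All 10 symbols were found in the deposited table, among 21889 symbols in all. The livers came from male C57BL/6 mice (the strain in the sample labels, C57BL/6J in the study's methods), 3 mice at each of 12 ages, and mRNA was measured by RNA-Seq. The ages were GD17.5 (late gestation, day -2 in the sample labels), Day 0 (at birth, before suckling), Days 1, 3, 5, 10, 15 and 20 (suckling) and Days 25, 30, 45 and 60 (after weaning at 21 days of age). No mouse carried an altered allele or was given an agent. Dams and weaned mice ate standard chow, and the mice of an age were drawn from several litters.

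PPARα is a ligand-activated transcription factor that binds DNA together with a retinoid X receptor and is activated by fatty acids. In liver it is known for inducing fatty acid uptake and oxidation in peroxisomes and mitochondria, and ketone body synthesis, when the animal depends on fat. Such a state is reached in the fasted adult and also in the newborn, whose supply of glucose through the placenta ends at birth and is replaced by milk, in which most of the energy is fat. The 9 other genes represent different branches of this response: a secreted hormone (Fgf21), a secreted lipase inhibitor (Angptl4), a mitochondrial kinase (Pdk4) and carrier (Ucp2), enzymes that act on acyl-CoA (Ehhadh, Acot1, Acot2) or pantetheine (Vnn1), and a membrane-bound transcription factor (Creb3l3).

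Values are FPKM, fragments assigned to a gene after scaling for its length and for the fragments mapped in the library, so that levels can be compared between genes per length. The test was limma on log2(FPKM + 1), and a log2 change on this scale understates the change of a gene of low level. A gene was called higher or lower at an adjusted p under 0.05 (Benjamini-Hochberg over 11149 genes, those whose mean reached 1 FPKM at any age). All 10 genes passed this filter. Fgf21 and Acot2 passed it only through Days 1, 3 and 5, and Pdk4 only through Days 0 to 10, the ages at which they are high. Their calls between these ages and others are therefore not independent of the filter. The 3 mice of an age are separate animals. In whole liver, fewer cells of a type and less RNA per cell cannot be told apart.

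Summed FPKM per liver was between 353712 and 450597. The deposited values carry no counts. Steps between low values gave a rough relative depth of 0.894 to 1.24, but no counts were recovered, since 60.6% of 28393 low values fell within 0.1 of whole fragments. All 10 hepatocyte markers were above 0 at every age, with a sum of 8164 to 9690 FPKM at GD17.5 and of 36727 to 80384 FPKM at the later ages. The 11 erythroid markers had the opposite course, with 127542 to 185439 FPKM at GD17.5 but 652 to 716 FPKM at Day 60. The 10 skeletal muscle markers summed to 1409 FPKM in mouse 1 of Day 0, 96.7 FPKM in mouse 1 of Day 10 and at most 15.9 FPKM in the other libraries. The 8 pancreatic acinar markers ranged from 4.85 to 23336 FPKM, the highest in mouse 1 of Day 60.

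Acot1 and Acot2 are neighbours on chromosome 12 of NCBI37/mm9, at 85350448 to 85358621 and 85328811 to 85334823 on the plus strand, and parts of their transcripts are the same. Of 1465 stretches of 100 bases in the Acot1 transcripts, 476 (32.5%) also occur in another gene, 359 of them in Acot2. For Acot2 this share was 359 of 2097 stretches (17.1%), all of it with Acot1, and for the other 8 genes it was 0. The longest run common to both coding sequences is 273 bases long, from base 887 to 1159 of the Acot1 and from base 1010 to 1282 of the Acot2 coding sequence. Its first 100 bases are shown because a read of them matches both genes when taken alone. Reads were paired, so a mate outside the run could still tell the genes apart. The levels of Acot1 and Acot2 are uncertain to the extent that reads were divided between them.
Acot1 and Acot2, shared: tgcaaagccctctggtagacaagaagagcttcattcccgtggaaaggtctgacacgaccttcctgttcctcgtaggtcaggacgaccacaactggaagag

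PPARα is known to bind a direct repeat of AGGTCA spaced by 1 base. The exact letters AGGTCANAGGTCA, searched on both strands from 3000 bases before to 500 bases after the annotated start (GENCODE M1, NCBI37/mm9), were found for 0 of the 10 genes and for 126 of 19863 genes (0.634%). AGGNCANAGGNCA, which contains the first pattern, was also found for 0 of the 10 and for 1149 of 19863 (5.78%). A single AGGTCA within 250 bases before the start was found for 1 of the 10 genes, Vnn1, and for 2429 of 19863 (12.2%). No match says only that these letters are not in the window. The 250 bases before the start are shown for the 3 genes with the largest rise on Day 1, described below, and for Vnn1, with a match in capitals.
Ehhadh (chr16:21787918-21788167, minus strand): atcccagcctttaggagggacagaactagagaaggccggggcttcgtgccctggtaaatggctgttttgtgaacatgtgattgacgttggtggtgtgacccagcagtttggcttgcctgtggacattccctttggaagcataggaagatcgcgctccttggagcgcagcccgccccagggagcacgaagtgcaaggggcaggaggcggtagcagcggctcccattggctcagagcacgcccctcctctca
Acot1 (chr12:85350198-85350447, plus strand): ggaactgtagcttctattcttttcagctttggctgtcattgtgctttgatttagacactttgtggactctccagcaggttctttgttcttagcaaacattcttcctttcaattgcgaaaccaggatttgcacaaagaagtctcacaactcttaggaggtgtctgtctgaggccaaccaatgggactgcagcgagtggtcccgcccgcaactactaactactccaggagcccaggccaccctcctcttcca
Acot2 (chr12:85328561-85328810, plus strand): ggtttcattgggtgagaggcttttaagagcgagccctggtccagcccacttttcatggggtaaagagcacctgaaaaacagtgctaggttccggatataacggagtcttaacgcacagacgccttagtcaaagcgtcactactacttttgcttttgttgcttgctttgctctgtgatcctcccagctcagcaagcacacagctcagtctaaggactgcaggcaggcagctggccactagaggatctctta
Vnn1 (chr10:23614244-23614493, plus strand): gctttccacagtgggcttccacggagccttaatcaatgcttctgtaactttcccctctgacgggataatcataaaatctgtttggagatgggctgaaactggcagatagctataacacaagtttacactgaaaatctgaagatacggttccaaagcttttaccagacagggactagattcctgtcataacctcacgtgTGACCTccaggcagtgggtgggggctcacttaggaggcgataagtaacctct

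Ppara mRNA had its highest mean at Day 10, and by Day 20 the mean was near that of Day 1. From a mean of 4.33 ± 1.37 FPKM at GD17.5 it went to 8.68 ± 0.790 on Day 0, 13.6 ± 4.68 on Day 1, 20.3 ± 3.09 on Day 3, 23.9 ± 3.81 on Day 5 and 25.8 ± 7.38 on Day 10 (SD, n = 3 mice for every single age). Later means were 22.1 ± 6.45 FPKM on Day 15, 14.1 ± 0.75 on Day 20, 9.98 ± 4.25 on Day 25, 9.10 ± 5.65 on Day 30, 8.95 ± 3.03 on Day 45 and 13.4 ± 2.51 on Day 60. With the ages put in the order of their means, 9 of 11 neighbouring ages overlapped between mice, and only Day 3 lay wholly above Day 20, and Day 0 wholly above GD17.5. The mean over suckling (Days 1 to 20) was 20.0 ± 6.29 FPKM, against 10.4 ± 3.94 FPKM after weaning (log2 change 0.93 ± 0.17 SE, limma adjusted p = 1.07e-05). The lowest liver of all was mouse 1 of Day 30, at 2.61 FPKM, while its 2 companions had 11.8 and 12.9 FPKM. Compared with Day 60, only GD17.5 differed (adjusted p over all genes within the comparison).

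**Figure D1:**
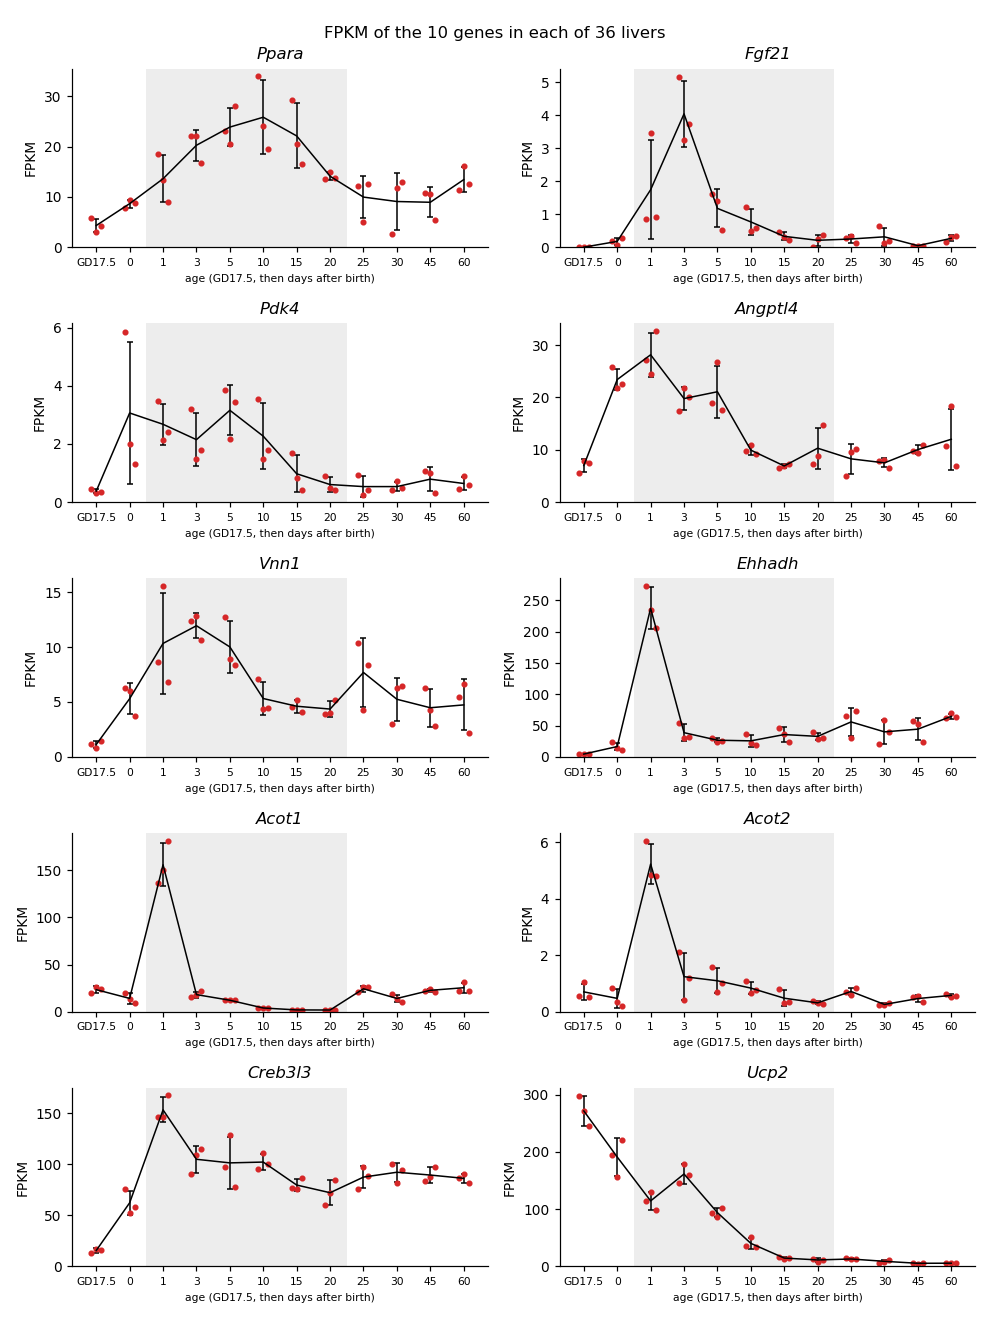
FPKM (y axis, linear, from 0) of each of the 10 genes against age (x axis, GD17.5 and then days after birth). Red points are single mice, black lines join the means of 3 mice, bars are SD and the shaded ages are the suckling ages. Ehhadh, Acot1 and Acot2 stand far above their other ages on Day 1, Ppara forms a broad rise with its highest mean of 25.8 FPKM at Day 10, and Ucp2 declines from 272 FPKM (GD17.5) to 5.50 FPKM (Day 60).

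Ehhadh, which encodes the peroxisomal bifunctional enzyme of fatty acid β-oxidation, had a sharp maximum on Day 1. The mice had 4.64, 4.23 and 4.32 FPKM at GD17.5, 23.1, 14.5 and 11.6 FPKM on Day 0, and 272, 235 and 206 FPKM at Day 1. By Day 3 the values were 53.7, 29.7 and 32.4 FPKM. The Day 1 livers therefore lay above every other liver, of which the highest was 72.6 FPKM at Day 25. After Day 1 the means stayed between 25.5 ± 9.07 FPKM (Day 10) and 64.7 ± 4.23 FPKM (Day 60), and neighbouring ages in that order overlapped between mice from Day 60 down to Day 0. The rise on Day 1 was 14.5-fold in the means (log2 change 3.82 ± 0.35, adjusted p = 2.75e-09), and the fall by Day 3 was to 0.163 of the Day 1 mean (log2 change -2.63 ± 0.35, adjusted p = 8.15e-06).

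Acot1 encodes the cytosolic acyl-CoA thioesterase, which releases fatty acids from long-chain acyl-CoA. It showed 2 separate rises, on Day 1 and at weaning, with a deep low between them. The mice had 20.0, 13.4 and 8.64 FPKM at Day 0, 136, 150.5 and 181 FPKM at Day 1 and 15.4, 17.2 and 21.5 FPKM at Day 3. The rise was 11.1-fold (log2 change 3.45 ± 0.21, adjusted p = 5.87e-13) and the following fall had a log2 change of -3.05 ± 0.21 (adjusted p = 2.56e-11). Through suckling Acot1 went on to 12.0 ± 0.186 FPKM (Day 5), 3.81 ± 0.337 (Day 10), 1.78 ± 0.250 (Day 15) and 1.65 ± 0.429 (Day 20). At Day 25, the first age on chow alone, all 3 mice were back at 20.5, 26.1 and 26.1 FPKM, against 1.29, 1.54 and 2.12 FPKM at Day 20. This 14.7-fold rise had a log2 change of 3.26 ± 0.21 (adjusted p = 2.05e-12) and kept its call with any of the 6 mice left out (log2 change 3.16 to 3.38). From Day 25 to Day 60 the means were between 13.9 ± 3.89 and 25.3 ± 5.27 FPKM, a range that includes GD17.5 (23.3 ± 3.75 FPKM). In the order of means, Day 1 stood apart from Day 60, Day 5 from Day 10, and Day 10 from Day 15, and the other 8 neighbours overlapped.

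Acot2, which encodes the mitochondrial form of the thioesterase, shared the maximum on Day 1 at a far lower level. The mice had 0.847, 0.349 and 0.206 FPKM at Day 0, 6.03, 4.84 and 4.80 FPKM at Day 1, and 2.11, 0.426 and 1.18 FPKM at Day 3. No other liver reached the lowest Day 1 value. The rise was 11.2-fold in the means (log2 change 2.10 ± 0.19, adjusted p = 2.33e-09) and the fall by Day 3 had a log2 change of -1.54 ± 0.19 (adjusted p = 2.75e-06). At weaning Acot2 moved from 0.309 ± 0.0539 to 0.712 ± 0.115 FPKM without overlap between mice, but this did not pass the test (log2 change 0.39 ± 0.19, adjusted p = 0.280).

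Creb3l3, which encodes the liver-enriched transcription factor CREB-H of the endoplasmic reticulum, is known to act with PPARα on Fgf21. It rose in 2 steps. The mice had 13.2, 17.4 and 16.1 FPKM at GD17.5, 75.8, 52.8 and 58.4 FPKM on Day 0 and 146, 147 and 168 FPKM at Day 1, with no overlap at either step (log2 changes 1.93 ± 0.16, adjusted p = 9.61e-11, and 1.30 ± 0.16, adjusted p = 4.52e-07). At Day 3 the mean was 105 ± 13.1 FPKM. This fall was called (log2 change -0.55 ± 0.16, adjusted p = 0.0230), but the call was lost without mouse 3 of Day 1 (adjusted p = 0.115), mouse 1 of Day 3 (0.109) or mouse 2 of Day 3 (0.0515). From Day 3 on the means stayed between 72.2 ± 12.2 FPKM (Day 20) and 105 FPKM, with overlap between all neighbours in the order of means.

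**Figure D2:**
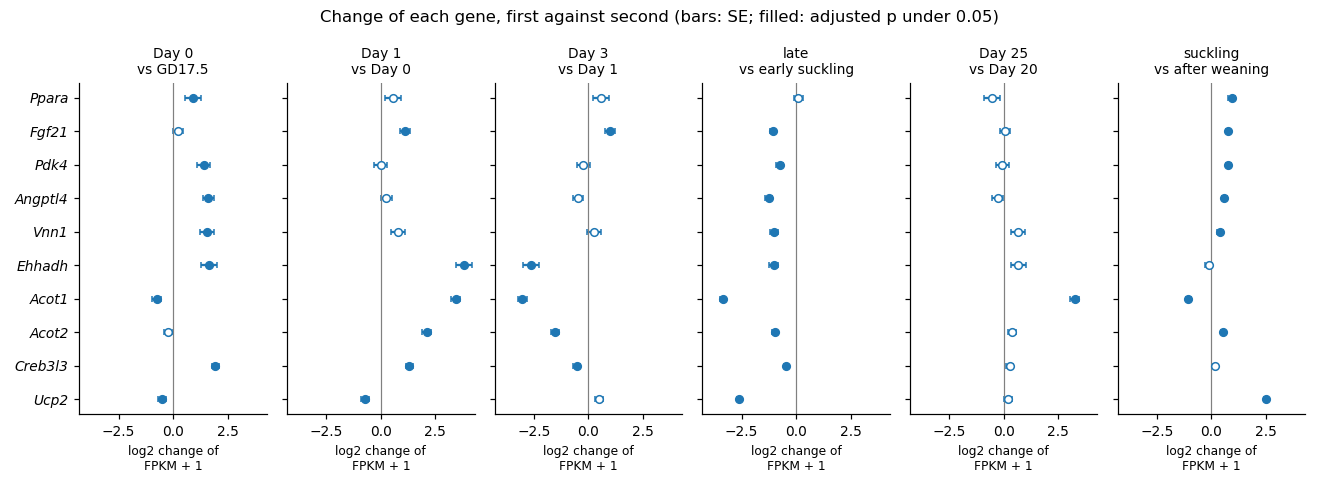
Log2 change of FPKM + 1 (x axes, linear) of the 10 genes (y axis) in 6 comparisons, the first age or group minus the second. Points are limma estimates, bars are SE, and filled points have an adjusted p under 0.05. Ehhadh, Acot1 and Acot2 are far to the right for Day 1 against Day 0 (3.82, 3.45 and 2.10) and far to the left for Day 3 against Day 1, and Acot1 is the only filled point for Day 25 against Day 20.

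Fgf21, the hormone that liver secretes during fasting, was nearly silent before birth and highest on Day 3, later than the enzymes. It was listed at 0 in 2 mice of GD17.5 and at 0.0134 FPKM in the other, and had 0.205, 0.0554 and 0.275 FPKM at Day 0. At Day 1 the mice had 0.842, 3.47 and 0.913 FPKM, and at Day 3 they had 5.15, 3.23 and 3.73 FPKM. Mouse 2 of Day 1 thus stood at the level of Day 3, above the lowest Day 3 mouse. Fgf21 was called higher at Day 1 than at Day 0 (log2 change 1.09 ± 0.23, adjusted p = 7.38e-04), and without mouse 2 of Day 1 the log2 change was 0.68 (adjusted p = 0.0110). The further change from Day 1 to Day 3 was 0.99 ± 0.23 (adjusted p = 0.00471). That call was lost without mouse 3 of Day 1 (0.79, adjusted p = 0.0536) and with a pseudocount of 0.1 (adjusted p = 0.0839). The means then fell to 1.18 ± 0.576 FPKM at Day 5, 0.768 ± 0.388 at Day 10 and 0.331 ± 0.122 at Day 15, and were between 0.0489 ± 0.00211 (Day 45) and 0.317 ± 0.277 FPKM (Day 30) at Days 20 to 60. Suckling and after-weaning livers had 1.38 ± 1.49 and 0.222 ± 0.172 FPKM (log2 change 0.76 ± 0.11, adjusted p = 2.03e-07).

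Angptl4, which encodes a secreted inhibitor of lipoprotein lipase, was raised from birth to Day 5 and changed in steps. The mice had 5.64, 7.78 and 7.53 FPKM at GD17.5, 25.7, 21.9 and 22.6 FPKM on Day 0 and 27.2, 24.4 and 32.8 FPKM at Day 1. The rise at birth was 3.35-fold (log2 change 1.62 ± 0.24, adjusted p = 4.05e-06), while Days 0 and 1 overlapped (adjusted p = 0.451). Means were 19.8 ± 2.17 FPKM at Day 3 and 21.1 ± 4.95 at Day 5, and then between 6.90 ± 0.328 (Day 15) and 12.0 ± 5.83 FPKM (Day 60). Early suckling (Days 1, 3 and 5) lay wholly above late suckling (Days 10, 15 and 20), with 23 ± 5.20 and 9.04 ± 2.57 FPKM (n = 9 each; log2 change of late against early -1.27 ± 0.14, adjusted p = 5.07e-09).

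Pdk4 encodes pyruvate dehydrogenase kinase 4, which blocks the entry of pyruvate into the citric acid cycle. It was low throughout, and higher from birth to Day 10 than at other ages. The mice had 0.454, 0.316 and 0.362 FPKM before birth (GD17.5), then 5.87, 2.02 and 1.32 FPKM on Day 0. The highest of these, mouse 1 of Day 0, was also the library with 1409 FPKM of skeletal muscle markers. Without it the log2 change at birth was 0.94 (adjusted p = 0.00584), against 1.40 ± 0.30 with all mice (adjusted p = 2.86e-04), so Pdk4 was also called higher at birth in the other 2 livers. Means of Days 1 to 10 were between 2.15 ± 0.913 and 3.16 ± 0.866 FPKM, and those of Days 15 to 60 between 0.532 ± 0.160 and 0.975 ± 0.638 FPKM. Mouse 1 of Day 10, with 96.7 FPKM of skeletal muscle markers, had 3.56 FPKM of Pdk4, against 1.47 and 1.78 FPKM in its companions. All 11 neighbours in the order of means overlapped between mice. Its relatives had other courses. Pdk2 rose at birth (7.56 ± 0.529 to 17.7 ± 3.65 FPKM), averaged 15.0 ± 1.87 FPKM in early and 32.2 ± 11.3 FPKM in late suckling and was called higher in late suckling, and Pdk3 went from 20.6 ± 1.18 FPKM (GD17.5) to 0.178 ± 0.0601 FPKM (Day 60).

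Vnn1, which encodes the pantetheinase vanin 1, rose at birth from 1.14, 0.819 and 1.40 FPKM to 6.24, 5.95 and 3.70 FPKM (log2 change 1.55 ± 0.32, adjusted p = 1.92e-04). Means were 10.3 ± 4.6 FPKM at Day 1, 11.9 ± 1.16 at Day 3 and 10.0 ± 2.38 at Day 5, and 4.35 ± 0.723 to 7.68 ± 3.13 FPKM afterwards. All 3 Day 1 mice (8.60, 15.5 and 6.84 FPKM) exceeded all Day 0 mice, but the difference missed the threshold (log2 change 0.80 ± 0.32, adjusted p = 0.0543). It passed with the replicate number as a block (adjusted p = 0.0449) and without mouse 1 of Day 0 (0.0491) or mouse 3 of Day 1 (0.0267). Its relative Vnn3 rose at birth from 3.75 ± 0.705 to 71.4 ± 7.39 FPKM.

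Ucp2, which encodes a carrier of the inner mitochondrial membrane, was the one gene of the 10 that was highest before birth. The mice had 297, 272 and 245 FPKM at GD17.5, 195, 157 and 221 FPKM on Day 0, and 114, 131 and 98.4 FPKM at Day 1. Day 3 (146, 179 and 159 FPKM) lay wholly above Day 1, but the difference did not pass the test (log2 change 0.50 ± 0.18, adjusted p = 0.0826). Later means were 93.9 ± 7.57 FPKM on Day 5, 40.2 ± 9.54 on Day 10, 14.5 ± 1.71 on Day 15, 11.2 ± 2.76 on Day 20 and 5.50 ± 0.453 on Day 60. The fall at birth (log2 change -0.52 ± 0.18, adjusted p = 0.0204) lost its call without mouse 1 of GD17.5 (adjusted p = 0.0808) or mouse 2 of Day 0 (0.119) and under upper-quartile scaling of the libraries (0.248). The fall from early to late suckling was from 123 ± 32.4 to 21.9 ± 14.6 FPKM without overlap (log2 change -2.63 ± 0.11, adjusted p = 1.06e-18).

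Markers of blood cells were lower in late than in early suckling, as Ucp2 was. At birth the erythroid sum was lower, as Ucp2 was, while the neutrophil and lymphocyte sums were higher. The 11 erythroid markers summed to 21539 to 47369 FPKM in the livers of Days 1 to 5 and to 2511 to 18690 FPKM at Days 10 to 20, and the 11 neutrophil markers to 1773 to 3356 and to 24 to 764 FPKM. The 12 macrophage markers had 410 to 502 FPKM at Days 1 to 5 and 125 to 350 FPKM at Days 10 to 20, and the 10 lymphocyte markers 35.8 to 69.2 and 5.80 to 30.9 FPKM. No marker of these lists was at 0 in all 3 mice of an age, but some were at 0 in single mice (Ermap, Gata1 and Epb4.2 of the erythroid, Camp and Mmp8 of the neutrophil and Cd3e of the lymphocyte list). From GD17.5 to Day 0, where Ucp2 was lower on Day 0, the erythroid sum was 127542 to 185439 FPKM and then 60133 to 80506 FPKM. The neutrophil sum was higher on Day 0 (2005 to 3802 FPKM, then 4453 to 4690 FPKM), as was the lymphocyte sum (23.3 to 31.9 FPKM, then 54.7 to 69.4 FPKM). From Day 0 to Day 1, where Ucp2 was lower again, the macrophage sum was 321 to 388 FPKM and then 474 to 502 FPKM. Between Day 1 and Day 3, where Ucp2 was higher on Day 3, the erythroid sum was 21539 to 33638 FPKM on Day 1 and 40057 to 47369 FPKM on Day 3. The neutrophil sum was lower on Day 3 (2691 to 3356 FPKM, then 1773 to 2297 FPKM), as was the macrophage sum (474 to 502 FPKM, then 410 to 449 FPKM). The lymphocyte sums again overlapped. The part of these cells in the level of Ucp2 was not tested.

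**Figure D3:**
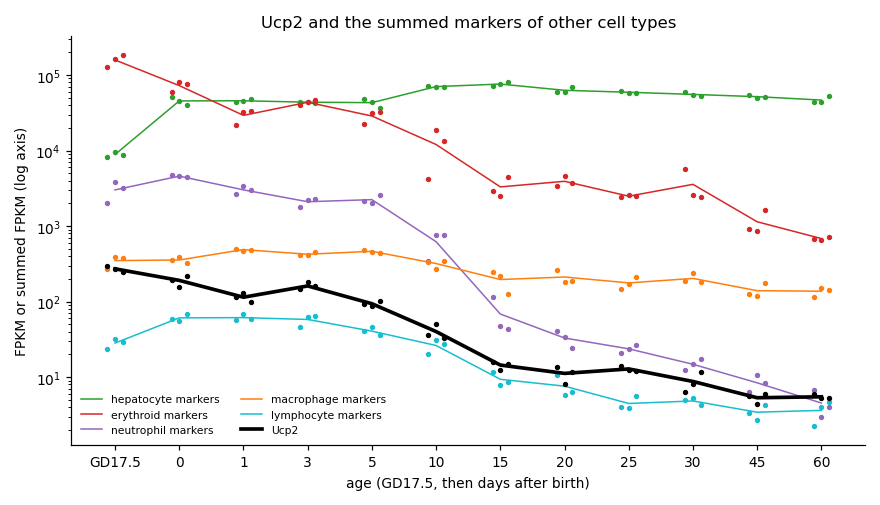
FPKM of Ucp2 and summed FPKM of marker lists (y axis, log scale) against age (x axis). Points are single mice and lines join the means of 3 mice. Ucp2 declines from 272 FPKM (GD17.5) to 5.50 FPKM (Day 60). The erythroid sum is also highest at GD17.5 and lowest at Day 60, the neutrophil and lymphocyte sums rise at birth before they decline, and the hepatocyte sum rises at birth and is never below 36727 FPKM afterwards.

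At birth (Day 0 against GD17.5, before any milk) 6 of the 10 genes were called higher: Creb3l3, Ehhadh, Angptl4, Vnn1, Pdk4 and Ppara. Of these, Pdk4 passed the filter only through Days 0 to 10. Among all genes tested, 13.1% were called higher. Acot1 (log2 change -0.75 ± 0.21, adjusted p = 0.00330) and Ucp2 were called lower, 2 of 10 against 41.4% of all genes. Acot2 and Fgf21 were not called (log2 changes -0.22 ± 0.19 and 0.23 ± 0.23). With a pseudocount of 0.1 Fgf21 was called higher (1.32, adjusted p = 0.0318). The call for Ppara (log2 change 0.89 ± 0.37, adjusted p = 0.0411) was lost without any mouse but mouse 1 of GD17.5 (adjusted p 0.0568 to 0.160), and that for Acot1 without mouse 3 of Day 0 (log2 change -0.47, adjusted p = 0.0548). The median log2 change was 1.15 over the 10 genes and -0.29 over all genes. Cell type markers moved at the same step: the summed hepatocyte markers were 8164 to 9690 FPKM at GD17.5 and 39708 to 50729 FPKM on Day 0, and the erythroid markers 127542 to 185439 FPKM and 60133 to 80506 FPKM. Their part in the changes of the 10 genes was not tested. When the upper quartile of the tested genes was made equal in all libraries, the median of all genes was -0.08, the share of higher genes among all calls was 44.2% in place of 24.1%, and the 10 genes had 6 higher and 0 lower calls.

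On the first day of milk (Day 1 against Day 0), 5 of the 10 genes were called higher, Ehhadh, Acot1, Acot2, Creb3l3 and Fgf21, against 23.7% of all genes. Of these, Acot2 and Fgf21 passed the filter only through Days 1, 3 and 5, so their calls are not independent of it. Ucp2 was called lower (log2 change -0.73 ± 0.18, adjusted p = 0.00385), 1 of 10 against 7.88% of all genes. Ppara itself was not called (8.68 ± 0.790 to 13.6 ± 4.68 FPKM, log2 change 0.55 ± 0.37, adjusted p = 0.253), and neither were Pdk4 (log2 change -0.00 ± 0.30), Angptl4 (0.25 ± 0.24) or Vnn1. The median was 0.95 over the 10 genes and 0.19 over all genes. Upper-quartile scaling left the split of the 10 genes at 5 and 1, with a median of all genes of 0.07 and 54.5% in place of 75% of all calls higher. Of the 10 clock genes tested, 5 were called higher and 1 lower between the same days. Scaling to equal sums gave the same split of the 10 genes, with a median of 0.31 and 83.5% of all calls higher.

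By Day 3 the change had turned for 4 of the 5 genes. Ehhadh, Acot1, Acot2 and Creb3l3 were called lower than at Day 1, 4 of 10 against 3.09% of all genes, and Fgf21 was called higher, 1 of 10 against 8.22%. This comparison was added after the values had been seen, and it shares the Day 1 mice with the one before, as that one shares the Day 0 mice with the comparison at birth. Changes that involve a shared age are therefore not independent of each other. Upper-quartile scaling left the split at 1 and 4, with 50.8% in place of 72.7% of all calls higher (48.9% with equal sums).

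Within suckling, 9 of the 10 genes were called lower in late (Days 10, 15 and 20) than in early suckling (Days 1, 3 and 5), and 0 were called higher, against 65.1% and 8.18% of all genes. A fall was therefore also common among all genes, whose median log2 change was -0.40, beside -1.01 over the 10. The 9 include Fgf21, Acot2 and Pdk4, which passed the filter only through ages at which they are high. Acot1 fell most (62.0 ± 71.4 to 2.41 ± 1.09 FPKM, n = 9 each, log2 change -3.37 ± 0.12, adjusted p = 4.59e-20), without overlap. Fgf21 (-1.08 ± 0.13), Ehhadh (-1.02 ± 0.20), Vnn1 (-1.01 ± 0.18), Acot2 (-0.99 ± 0.11), Pdk4 (-0.75 ± 0.17) and Creb3l3 (-0.48 ± 0.09) fell with overlapping mice. For Ehhadh the change rests on the maximum of Day 1. Its means were 38.6 ± 13.2 and 26.6 ± 3.43 FPKM at Days 3 and 5. They were 25.5 ± 9.07, 35.6 ± 12.0 and 32.7 ± 6.04 FPKM at Days 10, 15 and 20. Ppara was not called (19.3 ± 5.64 and 20.7 ± 7.15 FPKM, log2 change 0.09 ± 0.21). With upper-quartile scaling the median of all genes was -0.02, 46.2% in place of 11.2% of all calls were higher, Ppara was called higher (0.60, adjusted p = 0.00828), Creb3l3 was not called (0.06, adjusted p = 0.686), and the other 8 genes were called lower.

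At weaning (Day 25 against Day 20), Acot1 alone was called, higher, 1 of 10 against 3.94% of all genes, and 0 of 10 were called lower against 3.26%. The other log2 changes were between -0.55 ± 0.37 (Ppara) and 0.67 ± 0.35 (Ehhadh). Ppara was lower in all 3 mice of Day 25 (12.2, 5.07 and 12.6 FPKM) than in those of Day 20 (13.6, 15.0 and 13.8 FPKM), with an adjusted p of 0.461. The median log2 change was 0.24 over the 10 genes and -0.07 over all genes. Clock genes moved at the same step: of 14 listed, 10 were tested and 7 were called lower at Day 25, among them Dbp (9.46 ± 6.35 to 0.598 ± 0.0551 FPKM) and Tef (12.5 ± 1.80 to 2.96 ± 0.830 FPKM). Livers from Day 3 on were collected at one hour of the morning and those of Day 1 a full day after birth. The part of the clock genes in the result for Acot1 was not tested.

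Over all of suckling against all ages after weaning, 7 of the 10 genes were called higher, beside 68.1% of all genes, and 1 lower, Acot1, beside 11.7%. A count of 7 is thus close to the share of all genes. It includes Fgf21, Acot2 and Pdk4, which passed the filter only through ages at which they are high. The higher genes were Ucp2 (log2 change 2.5 ± 0.08), Ppara, Pdk4 (0.78 ± 0.14), Fgf21, Angptl4 (0.60 ± 0.11), Acot2 (0.52 ± 0.09) and Vnn1 (0.40 ± 0.14, adjusted p = 0.0135), and the median of all genes was 0.39. Creb3l3 was not called (0.15 ± 0.07, adjusted p = 0.0537). Means and log2 changes had opposite signs for 2 genes: Acot1 averaged 32.2 ± 57.8 FPKM in suckling and 21.5 ± 5.67 FPKM after weaning but had a log2 change of -1.05 ± 0.09 (adjusted p = 3.89e-11), and Ehhadh averaged 66.1 ± 80.2 and 51.2 ± 18.2 FPKM with a log2 change of -0.13 ± 0.16 (adjusted p = 0.450). With upper-quartile scaling the median of all genes was 0.12 and 62.3% in place of 85.4% of all calls were higher. The 10 genes then had 5 higher and 3 lower calls: Angptl4 (0.21, adjusted p = 0.105) and Vnn1 (0.04, adjusted p = 0.799) lost theirs, and Ehhadh (-0.54, adjusted p = 0.00177) and Creb3l3 (-0.26, adjusted p = 0.00753) were called lower.

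Compared with Day 60, all 10 genes differed in at least one age, as did 90.7% of all genes tested. The number of differing ages, out of 11, was 9 for Ucp2, 8 for Acot1, 5 for Pdk4, Angptl4 and Ehhadh, 4 for Vnn1, 3 for Fgf21 and Creb3l3, 2 for Acot2 and 1 for Ppara.

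The list of other genes known as PPARα targets held 76 symbols, of which 73 were tested. Some of these also passed the filter only through ages at which they are high, such as Acot5 (Day 1) and Aqp3 (GD17.5, Day 1 and Day 3). Their calls that involve these ages are not independent of the filter. At birth 41 were called higher and 6 lower, beside 13.1% and 41.4% of all genes. The largest rises were those of Apoa5, an apolipoprotein of triglyceride metabolism (0.310 ± 0.0806 to 76.7 ± 53.7 FPKM), and the fatty acid ω-hydroxylases Cyp4a14 and Cyp4a10. Aqp3, Acsl3 and Mgll fell most. On Day 1, 57 of 73 were called higher and 2 lower (23.7% and 7.88% of all genes), with a median log2 change of 1.2 beside 0.19 over all genes. Cyp4a14 rose from 33.1 ± 25.7 to 1064 ± 252 FPKM and Cyp4a10 from 25.5 ± 9.39 to 332 ± 40.4 FPKM. The phosphatidate phosphatase gene Lpin1 fell from 21.2 ± 6.29 to 2.23 ± 1.56 FPKM and Cyp4a12a from 5.47 ± 1.62 to 2.67 ± 1.11 FPKM. From Day 1 to Day 3, 3 were called higher (Aqp9, Acaa2 and Vnn3) and 20 lower, beside 8.22% and 3.09% of all genes. Among the lower were Cyp4a14 (to 314 ± 49.5 FPKM) and the lipid droplet gene Cidec (10.9 ± 4.09 to 1.23 ± 0.152 FPKM).

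**Figure D4:**
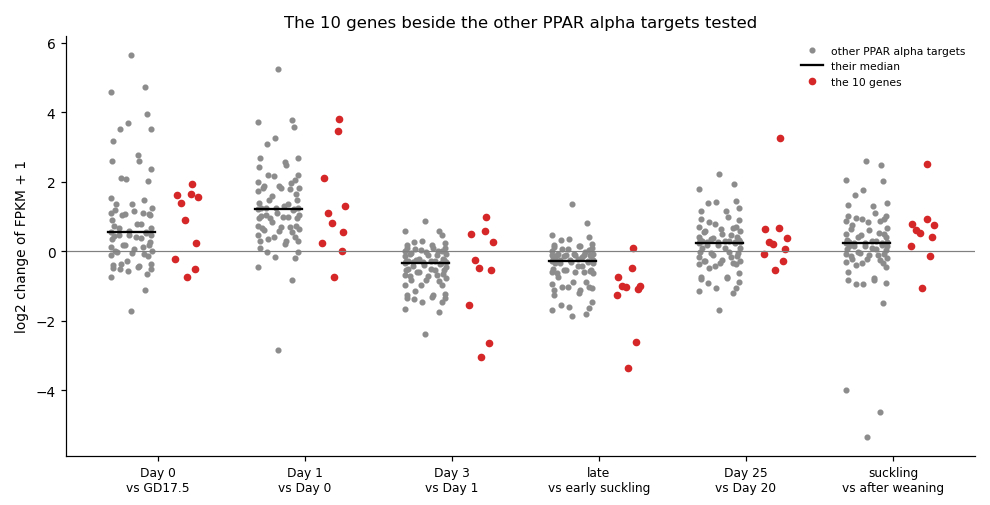
Log2 change of FPKM + 1 (y axis, linear) in the 6 comparisons (x axis) for the other PPARα targets tested (grey points, 73 genes, with their median as a black line) and for the 10 genes (red points). On Day 1 against Day 0 the median of the grey points is 1.2, and Ehhadh and Acot1 at 3.82 and 3.45 lie near their top, while Ucp2 lies at -0.73.

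Later the same list was divided. In late against early suckling 6 were called higher and 39 lower, beside 8.18% and 65.1% of all genes, and with upper-quartile scaling, where 72 were tested, 32 and 19, so that its direction depended on the scaling. At weaning 15 were called higher and 9 lower, beside 3.94% and 3.26% of all genes. The higher were led by the peroxisomal CoA diphosphatase gene Nudt7 (41.9 ± 5.95 to 197 ± 11.1 FPKM), Cyp4a12a and Cyp4a10, and the lower by Lpl, Cpt1a, which encodes the carnitine palmitoyltransferase that controls fatty acid entry into mitochondria (74.0 ± 3.78 to 33.6 ± 13 FPKM), and Acot12. Over all of suckling 33 were called higher and 19 lower than after weaning (21 and 32 with upper-quartile scaling), beside 68.1% and 11.7% of all genes. Lpl, Cyp4a31 and Acot3 had the largest positive and Cyp4a12a, Cyp4a12b and Nudt7 the largest negative log2 changes.

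Among 28 relatives of the 10 genes, 22 were tested. Several relatives, such as Vnn3, Acot3, Acot5 and Acot12, are also in the list of other PPARα targets, so the 2 lists are not separate. On Day 1 the call was higher for 6 of the 22 relatives and lower for 1, shares near those of all genes (23.7% and 7.88%). Besides Vnn3, the higher were 5 of the 11 acyl-CoA thioesterases of the list: Acot3 (0.994 ± 0.664 to 15.2 ± 0.584 FPKM), Acot4 (2.52 ± 0.341 to 15.1 ± 0.988 FPKM), Acot5 (0.656 ± 0.210 to 3.62 ± 0.388 FPKM), Acot12 and Acot13. Of these, Acot5 passed the filter only through Day 1, so its calls that involve Day 1 are not independent of the filter. Pdk3 was called lower. At weaning Acot5 rose as Acot1 did, from 0.0960 ± 0.0488 to 0.614 ± 0.113 FPKM (log2 change 0.56 ± 0.10, adjusted p = 4.50e-04), and the other calls were Acot8 higher and Acot12 lower. Acot3 was not called (3.03 ± 0.859 and 2.16 ± 0.847 FPKM, adjusted p = 0.512). By suckling against after weaning, 12 of the 22 were called higher and 6 lower, beside 68.1% and 11.7% of all genes. In the other 3 comparisons the counts were 6 and 5 at birth (13.1% and 41.4% of all genes), 2 and 3 for Day 3 against Day 1 (8.22% and 3.09%) and 5 and 12 for late against early suckling (8.18% and 65.1%).

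Of 16 partners and coregulators of PPARα listed, 13 were tested, and Ppargc1a, Ppargc1b and Crebbp were below the filter. At birth Rxra, the retinoid X receptor most abundant in liver, rose from 15.2 ± 1.25 to 39.8 ± 9.49 FPKM (log2 change 1.31 ± 0.27, adjusted p = 2.28e-04) and Nr0b2 from 0.210 ± 0.0580 to 2.41 ± 0.676 FPKM, while Ep300, Ncor1, Nrip1 and Med1 were called lower (2 and 4 of 13, beside 13.1% and 41.4% of all genes). Nrip1 passed the filter only through GD17.5, where its mice ranged from 0.438 to 2.52 FPKM, so its call at birth is not independent of the filter. On Day 1 only Pparg (1.27 ± 0.423 to 3.42 ± 0.435 FPKM) and Nr0b2 were called, both higher (2 of 13, beside 23.7% of all genes). None of the 13 was called on Day 3 against Day 1. Ppard and Rxrg were called higher at weaning (2 of 13, beside 3.94%). In late against early suckling 2 were higher and 1 lower (8.18% and 65.1% of all genes), and in suckling against after weaning 5 were higher and 3 lower (68.1% and 11.7%).

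Of 6 genes for FGF21 receptors and co-receptors, 5 were tested (Kl was below the filter). On Day 1, when Fgf21 was called higher than on Day 0, Klb, the β-Klotho co-receptor through which FGF21 acts, rose from 3.70 ± 1.06 to 11.2 ± 2.18 FPKM (log2 change 1.39 ± 0.24, adjusted p = 7.55e-05) and fell to 5.73 ± 0.722 FPKM by Day 3 (adjusted p = 0.0187), the day on which Fgf21 was highest. Fgfr4 (3.67 ± 0.650 to 6.07 ± 1.04 FPKM) and Fgfr2 were also called higher on Day 1 (3 of 5 in all, beside 23.7% of all genes). None of the 5 was called at birth or at weaning. One rose (Fgfr4) and one fell (Klb) in late against early suckling (8.18% and 65.1% of all genes), and 3 were higher and 1 lower in suckling than after weaning (68.1% and 11.7%).

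Over the 12 age means, the genes of at least 5 FPKM whose log2(FPKM + 1) was most like that of Ppara were Glyctk (Pearson's r = 0.966), Nlrp6 (0.962) and Athl1 (0.957), and for Fgf21 they were Akt1s1 (0.880), Neu1 (0.880) and Atf5 (0.875), out of 6853 genes. These are the highest values of many, over 12 points, and describe the age course alone.

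Mice of the same age also differed from each other, and some of the 10 genes differed together. For each of the 45 pairs of genes the deviations from the age means were correlated over the 36 mice, with two-sided permutation of mice within ages (100000 draws). Pairs of other genes were not tested, so how common such correlations are among all genes is not known. After Benjamini-Hochberg adjustment over the 45 pairs, 11 pairs passed by Pearson's r and 11 by Spearman's rho. The closest were Pdk4 with Ehhadh (r = 0.76, rho = 0.83, permutation p = 2e-05 for both, adjusted p = 4.50e-04 and 9.00e-04) and Ppara with Ehhadh (r = 0.76, rho = 0.70, permutation p = 4.90e-04 and 6.20e-04, adjusted p = 0.00328 and 0.00399). Without the 2 mice farthest from the median of the first gene, r was 0.75 and 0.67. Pdk4 and Acot2 (r = 0.73), Vnn1 and Ehhadh (0.63), Ppara and Vnn1 (0.62), Ehhadh and Acot2 (0.58) and Ppara and Pdk4 (0.41) belong to the same set of 5 genes, with rho of 0.53 to 0.77, adjusted permutation p up to 0.0184 by r and up to 0.02475 by rho, and r of 0.43 to 0.70 without the 2 farthest mice. The mouse of Day 30 with 2.61 FPKM of Ppara had the lowest Ehhadh (20.5 FPKM, against 59.7 and 39.6) and Vnn1 (2.97 FPKM, against 6.28 and 6.46) of its age, and mouse 2 of Day 25, with 5.07 FPKM of Ppara, likewise had the lowest Ehhadh (29.7 FPKM, against 65.1 and 72.6) and Vnn1 (4.26 FPKM, against 10.4 and 8.39). Both libraries stand apart: the upper quartile of their values above 0 was 3.9996 FPKM (Day 30, against 5.73 and 5.40) and 4.71 FPKM (Day 25, against 5.27 and 5.52), and their relative depths of 1.24 and 1.22 were the highest of all. Mouse 3 of Day 45 was similar, with an upper quartile of 4.51 FPKM (against 5.00 and 5.15) and a relative depth of 1.17. That liver had the lowest Ppara (5.46 FPKM), Ehhadh (23.7 FPKM) and Vnn1 (2.85 FPKM) of its age. With upper-quartile scaling r was 0.70 for Ppara and Ehhadh, 0.54 for Ppara and Vnn1 and 0.57 for Vnn1 and Ehhadh, and all 3 pairs passed.

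The other pairs formed a second set: Angptl4 with Creb3l3 (r = 0.68, rho = 0.77, permutation p = 1e-05, the smallest that the draws can give, and 5e-05, adjusted p = 4.50e-04 and 9.00e-04), Angptl4 with Acot1 (r = 0.55, rho = 0.61, adjusted permutation p = 0.00328 and 0.00725) and Acot1 with Creb3l3 (r = 0.55, rho = 0.61, adjusted permutation p = 0.0156 and 0.00675). Without the 2 farthest mice r was 0.76, 0.50 and 0.50. Acot1 with Creb3l3 did not pass with libraries scaled to equal sums (r = 0.44, adjusted permutation p = 0.218), but passed with upper-quartile scaling (r = 0.67, adjusted permutation p = 0.00219). Ppara and Creb3l3 went in opposite directions (r = -0.50, rho = -0.58, permutation p = 4.90e-04 and 4.80e-04, adjusted p = 0.00328 and 0.00360; r = -0.49 without the 2 mice farthest from the median). The livers of low upper quartile named above had the highest Creb3l3 of their ages (100.6 FPKM at Day 30, 97.7 at Day 25 and 97.9 at Day 45). Their Acot1 was highest at Day 30 (18.2 FPKM), level with a companion at Day 25 (26.1 FPKM) and lowest at Day 45 (21.3 FPKM). For Ppara and Creb3l3 r was -0.73 with upper-quartile scaling and -0.41 with equal sums, and both passed. What these libraries add to the pairs was not tested further. Fgf21 and Ucp2 were in none of the 11 pairs. With 1 mouse left out at a time, 9 to 13 pairs passed. Pdk4 was highest in the mouse numbered 1 at 10 of 12 ages, Ehhadh at 9 and Acot2 at 8, and with the replicate number removed as well as the age r was 0.72 for Pdk4 and Ehhadh, 0.60 for Pdk4 and Acot2 and 0.48 for Ehhadh and Acot2. For Ppara and Ehhadh r was then 0.79, and for Angptl4 and Creb3l3 0.65. What the mice numbered 1 share is not given, and its part in these correlations was not tested further.

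**Figure D5:**
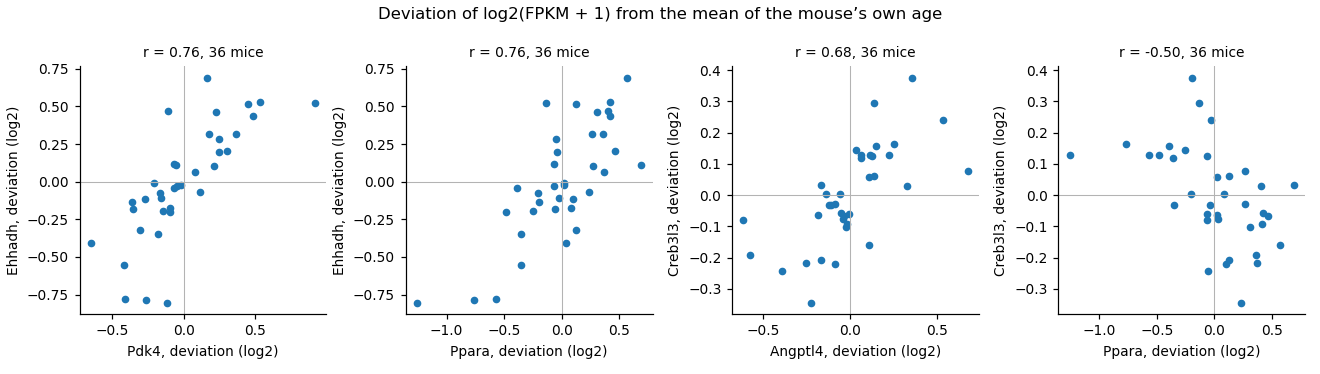
Deviation of log2(FPKM + 1) from the mean of the mouse's own age for 4 pairs of genes (x and y axes, log2 units), 1 point per mouse, 36 mice. Pdk4 with Ehhadh, Ppara with Ehhadh and Angptl4 with Creb3l3 slope upward (r = 0.76, 0.76 and 0.68) and Ppara with Creb3l3 slopes downward (r = -0.50).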

How the data were processed

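Livers of male C57BL/6 mice (C57BL/6J in the study's methods) were collected at 12 ages, 3 mice each, and polyadenylated RNA was sequenced. The authors mapped the paired reads to the mouse genome (NCBI37/mm9) with TopHat (1.2.0 per the submitters' processing notes) and estimated abundance with Cufflinks (1.0.3). They deposited FPKM values per gene symbol and mouse, without counts and with no further scaling named, so a count test was not possible and the depth behind a value is known only roughly.

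Values were read as log2(FPKM + 1), a pseudocount of 1, for genes whose mean reached 1 FPKM at any age. limma 3.58.1 (R 4.3.3) fitted 1 mean per age over all 36 mice with no covariates, and variances moderated with a mean trend. Benjamini-Hochberg adjustment ran over all tested genes. The count of genes that differ at any age from Day 60 was adjusted over genes and the 11 comparisons together, the count of ages per gene within each comparison. Such p-values measure the spread between mice of one age. The fit was tested on simulated data. Positions, transcripts and sequences are of GENCODE M1 and NCBI37/mm9, read with Python 3.11.15, numpy 2.4.6, pandas 2.3.3 and scipy 1.17.1, and figures were drawn with matplotlib 3.10.9.

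The 10 genes and the lists were chosen with earlier results of these data known. Named in every comparison were all 10 genes. From the other targets, the 3 with the largest rise and fall were named, out of those called and, between single ages, without overlap. All tested relatives, partners and FGF21 receptors could be named, as could the 3 genes most like Ppara and Fgf21 over age means. Alternatives were a pseudocount of 0.1, no filter or a filter at 5 FPKM, 2 other scalings, the replicate number as a block, variances without a trend, and each mouse left out.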

Additional observations from a re-analysis of the deposited data

How the results depend on the processing

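The number of the 10 genes called stayed within 1.5 times of its value with 0.1 as pseudocount, without the filter, with a filter at 5 FPKM (which left out Fgf21 and Pdk4), both scalings, the replicate block and variances without a trend. Leaving out 1 mouse gave 3 to 5 genes for Day 3 against Day 1 (3 without mouse 3 of Day 1), 6 to 7 for Day 0 against GD17.5, 6 to 7 for Day 1 against Day 0 and 8 to 9 for suckling against after weaning. The number was 9 in late against early suckling, 1 at Day 25 against Day 20 and 10 in any age against Day 60, with each mouse left out.

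The log2 change of Pdk4 at Day 1 against Day 0 was 0.0568 with a pseudocount of 0.1 and 0.12 with libraries scaled to equal sums, and -0.32 to 0.46 with 1 mouse left out. That of Creb3l3 was 0.0556 in late against early suckling and -0.26 in suckling against after weaning with upper-quartile scaling. At Day 25 against Day 20, leaving out 1 mouse gave -0.0644 to 0.15 for Fgf21, -0.26 to 0.0515 for Pdk4 and -0.48 to 0.000797 for Angptl4, of which none was called. Ppara at birth was also not called without a filter (adjusted p = 0.0640) or with equal sums (0.0674). The cause was not tested.

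Replicate numbers were not fitted as a pairing in the main test. Mice of different ages with the same number had a median correlation of their deviations of 0.13 (104 of 198 pairs over 0.1, the lowest -0.68). Those with other numbers had a median of -0.05 (147 of 396 pairs over 0.1). The best correlation was with the own number for 19 of 36 mice. Mice of the same number were thus somewhat more alike, and the reason was not tested. With the replicate block the counts of called genes were 8 for Day 0 against GD17.5, 7 for Day 1 against Day 0, 5 for Day 3 against Day 1, 9, 1 and 8 for the next 3 comparisons and 10 against Day 60. The one call that changed was Vnn1 at Day 1 (adjusted p = 0.0449), which was also called without mouse 1 of Day 0 (0.0491) or mouse 3 of Day 1 (0.0267). Values of Fgf21, Acot2 and Pdk4 lie near or under the pseudocount at most ages, which limits their log2 changes.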
